A study of Mus musculus with 23 samples.

Results

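The genes described here are 9 markers and regulators of the change between epithelial and mesenchymal cell states: the cadherin genes Cdh1 and Cdh2, the adhesion gene Epcam, the intermediate filament gene Vim, and the transcription factor genes Snai1, Snai2, Zeb1, Zeb2 and Twist1. They were chosen by name, as every probe set of the array that is annotated with 1 of these genes, which gave 21 of 45101 probe sets and 9 of 18194 named genes. All 23 Affymetrix mouse arrays of the series were read. The cells were epiblast-like cells, a culture counterpart of the epiblast before gastrulation, derived from embryonic stem cells of male C57BL/6 origin that were Wnt3 (-/-), called KO, or Wnt3 (+/+), called WT. Every line carried the BV transgene, in which Blimp1 regulatory elements drive a membrane Venus reporter, so the WT cells are reporter cells as well. After EpiLC induction with Activin A and bFGF the cells were placed in floating aggregates in a medium with LIF and serum replacement, and received BMP4 at 500 ng/ml, WNT3A at 50 ng/ml, both, or no cytokine for 12, 24 or 36 h. KO cells were given all 4 treatments and WT cells all but the combination, and 1 array of each genotype was taken at 0 h. Each genotype, treatment and time is 1 array, so no measurement has a replicate, and the genotype cannot be told apart from the line that carries it.

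In an epithelium, the cadherin encoded by Cdh1 holds neighbouring cells together at adherens junctions through catenins. During gastrulation, epiblast cells at the primitive streak leave the epithelium as mesoderm: Cdh1 gives way to Cdh2, which is the cadherin switch, and vimentin filaments appear. SNAIL, ZEB and TWIST proteins are DNA-binding factors that drive this transition, and SNAIL and ZEB proteins repress Cdh1 by binding E-box sequences in its promoter. WNT3 is required for primitive streak formation in the mouse embryo.

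Promoter sequences are described for 5 of the 9 genes, Epcam, Vim, Snai1, Zeb2 and Twist1, and not for Cdh1, Cdh2, Snai2 and Zeb1. They are RefSeq windows of 300 bases on GRCm38.p6. Each runs from 250 bases before a transcription start to 50 bases after it. Those of Snai1, Epcam and Vim are printed because these 3 genes are among the ones whose signal moved in the comparisons below, and because 2 of them hold the E2-box, the 6-letter site that SNAIL and ZEB proteins are known to bind. Capitals mark the E2-box, searched as CAGGTG on both strands, and all sequences read 5′ to 3′ on the strand of the gene, which is the plus strand for all 3.
Snai1, chr2:167537945-167538244: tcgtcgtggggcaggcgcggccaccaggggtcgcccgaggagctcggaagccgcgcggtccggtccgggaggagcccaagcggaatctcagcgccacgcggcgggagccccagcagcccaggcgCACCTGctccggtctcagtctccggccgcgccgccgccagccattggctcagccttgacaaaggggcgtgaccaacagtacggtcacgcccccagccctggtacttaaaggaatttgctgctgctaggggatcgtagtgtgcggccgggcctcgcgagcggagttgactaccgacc
Epcam, chr17:87635729-87636028: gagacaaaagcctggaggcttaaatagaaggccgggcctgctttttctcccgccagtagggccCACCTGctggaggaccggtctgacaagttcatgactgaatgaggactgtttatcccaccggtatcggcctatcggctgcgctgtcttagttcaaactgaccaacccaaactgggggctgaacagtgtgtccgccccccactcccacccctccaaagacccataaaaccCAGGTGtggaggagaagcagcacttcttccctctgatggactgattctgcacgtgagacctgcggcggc
Vim, chr2:13574061-13574360: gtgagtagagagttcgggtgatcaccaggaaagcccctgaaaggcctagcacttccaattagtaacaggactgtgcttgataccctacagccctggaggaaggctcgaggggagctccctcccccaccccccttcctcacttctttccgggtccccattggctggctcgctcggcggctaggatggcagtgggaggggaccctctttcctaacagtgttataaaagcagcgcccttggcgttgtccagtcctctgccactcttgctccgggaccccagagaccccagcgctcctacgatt
The E2-box occurred 2 times in the Epcam window, beginning at positions -187 and -19 counted from the start site, and 1 time in the Snai1 window, beginning at position -126. The windows of Vim, Twist1 and the 4 starts of Zeb2 held none. Of 32851 promoter windows of this length 20.2% held an E2-box. The TCF/LEF core, searched as CTTTGAA and CTTTGAT, was found in 8.65% of all windows, and the T-box site AGGTGTGA, which shares the letters AGGTG with the E2-box, in 1.28%, and neither was found in the windows of these genes. The matches are descriptions of letters and show no binding.

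The arrays had median signals between 36.8 and 41.4. On 6 KO arrays the cytokine in the sample title is not the one in the array name. Those with WNT3A in the title have both factors in the array name, and those with BMP4+WNT3A in the title have only WNT3A in it. Groups follow the titles and are written "KO titled WNT3A" and "KO titled BMP4+WNT3A". Id1, a BMP target, read 5480 to 9345 in KO cells titled WNT3A and 186 to 1323 in KO cells titled BMP4+WNT3A, against 145 to 224 in untreated KO cells, which goes against the titles, so for these arrays the text also says what holds with the labels exchanged. The Wnt3 probe set read 11.2 to 27.9 on the KO arrays, against 10.4 to 146 on the WT arrays, and which part of the gene was deleted is unknown here. The epiblast markers Pou5f1, Dnmt3b, Fgf5 and Pou3f1 exceeded the array median on all 23 arrays and Otx2 on 19. Of 7 fibroblast markers Col1a2 and Thy1 exceeded it on all 23 arrays, Col3a1 on 22 and Pdgfrb on 10, and Col1a1, Lum and Postn on none.

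Cdh1 stayed bright on every array. Its signal at 0 h was 7591 in KO cells and 7281 in WT cells. At 12, 24 and 36 h it read 6517, 7697 and 6383 in KO cells titled BMP4+WNT3A, 6081, 6654 and 6339 in KO cells titled WNT3A, and 6123, 6794 and 6295 in KO cells with BMP4, against 7591, 7968 and 7486 in untreated KO cells. In WT cells it read 5367, 6383 and 5442 with BMP4 and 6841, 6339 and 6383 with WNT3A, against 7643, 6383 and 7082 without cytokine. The whole range, between 5367 in WT cells with BMP4 at 12 h and 7968 in untreated KO cells at 24 h, spanned 0.56 on the log2 scale, while that of Cdh2 spanned 4.56. The order of the condition means placed untreated KO cells highest (12.91 ± 0.06, log2 normalized signal, SD, n = 3 times) and WT cells with BMP4 lowest (12.50 ± 0.14). The 5 conditions between them lay within 12.62 to 12.79, where neighbours differed by less than the larger of their SDs. Here and for the genes below such an SD holds the change over the 3 times, and it does not match the conditions by time.

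Epcam, which encodes another epithelial adhesion molecule, moved more than Cdh1. At 0 h it read 2998 in KO cells and 3061 in WT cells. In KO cells it read 3517, 3641 and 2957 titled BMP4+WNT3A, 3373, 3795 and 3641 titled WNT3A, and 3541, 3769 and 4451 with BMP4, against 3848, 4804 and 4330 untreated. In WT cells it read 3236, 3040 and 2385 with BMP4 and 3281, 3281 and 2353 with WNT3A, against 3795, 3929 and 3566 untreated. The lowest Epcam signals were thus the 36 h arrays of WT cells with either cytokine. The condition means ran between 12.07 ± 0.13 in untreated KO cells and 11.50 ± 0.33 in WT cells with BMP4 (log2 normalized signal, SD, n = 3 times), and no neighbours in that order differed by more than the larger of their SDs. The second Epcam probe set followed this course with r = 0.95 over 23 arrays and was also lowest there, at 750 with BMP4 and 734 with WNT3A.

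Cdh2, the mesenchymal cadherin, had 63.6 in KO cells and 81.6 in WT cells before aggregation. In KO cells it read 152, 199 and 1652 titled BMP4+WNT3A, 168, 82.7 and 452 titled WNT3A, and 128, 138 and 118 with BMP4, against 96.3, 94.4 and 184 untreated. In WT cells it read 133, 194 and 2048 with BMP4 and 131, 286 and 1898 with WNT3A, against 82.7, 156 and 313 untreated. The 36 h arrays of WT cells with either cytokine and of KO cells titled BMP4+WNT3A stood at 1652 or more while all other arrays stood at 452 or less, and KO cells with BMP4 read 118 at 36 h and 128 at 12 h. Between 24 and 36 h the log2 signal of Cdh2 changed by 3.16 in WT cells with BMP4, by 2.56 in WT cells with WNT3A and by 2.87 in KO cells titled BMP4+WNT3A, but by -0.27 in KO cells with BMP4. Its condition means ran between 8.76 ± 1.85 in WT cells with WNT3A and 7.10 ± 0.47 in untreated KO cells, again with no neighbours further apart than the larger SD. These SDs hold the rise over time itself, so they do not weigh the separation at 36 h. The second Cdh2 probe set gave the same order at 36 h, with 1380, 425 and 63.6 in KO cells titled BMP4+WNT3A, titled WNT3A and with BMP4, against 90.5 untreated, and with 2150 and 1734 in WT cells with BMP4 and WNT3A, against 220 untreated. In KO cells with BMP4 this probe set read 52.0, 59.3 and 63.6 at the 3 times, so the 2 probe sets differed there in the sign of a small change.

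Vim, which encodes the main intermediate filament protein of mesenchymal cells, was already well measured at 0 h, at 1176 in KO cells and 1152 in WT cells, the lowest values of the series. In KO cells it read 2048, 5113 and 9345 titled BMP4+WNT3A, 2241, 3929 and 8481 titled WNT3A, and 2226, 3126 and 2896 with BMP4, against 1698, 1783 and 2817 untreated. In WT cells it read 2006, 2896 and 9476 with BMP4 and 2210, 5442 and 9281 with WNT3A, against 2195, 2180 and 4330 untreated. At 36 h the arrays fell apart into 4 conditions between 8481 and 9476 and 3 between 2817 and 4330, with KO cells given BMP4 beside untreated KO cells. Over the 3 times, untreated KO cells had the lowest mean (11.01 ± 0.37) and lay further from their neighbour, KO cells with BMP4 (11.43 ± 0.20), than either SD. The 3 Vim probe sets followed one another with r of at least 0.99.

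**Figure D1:**
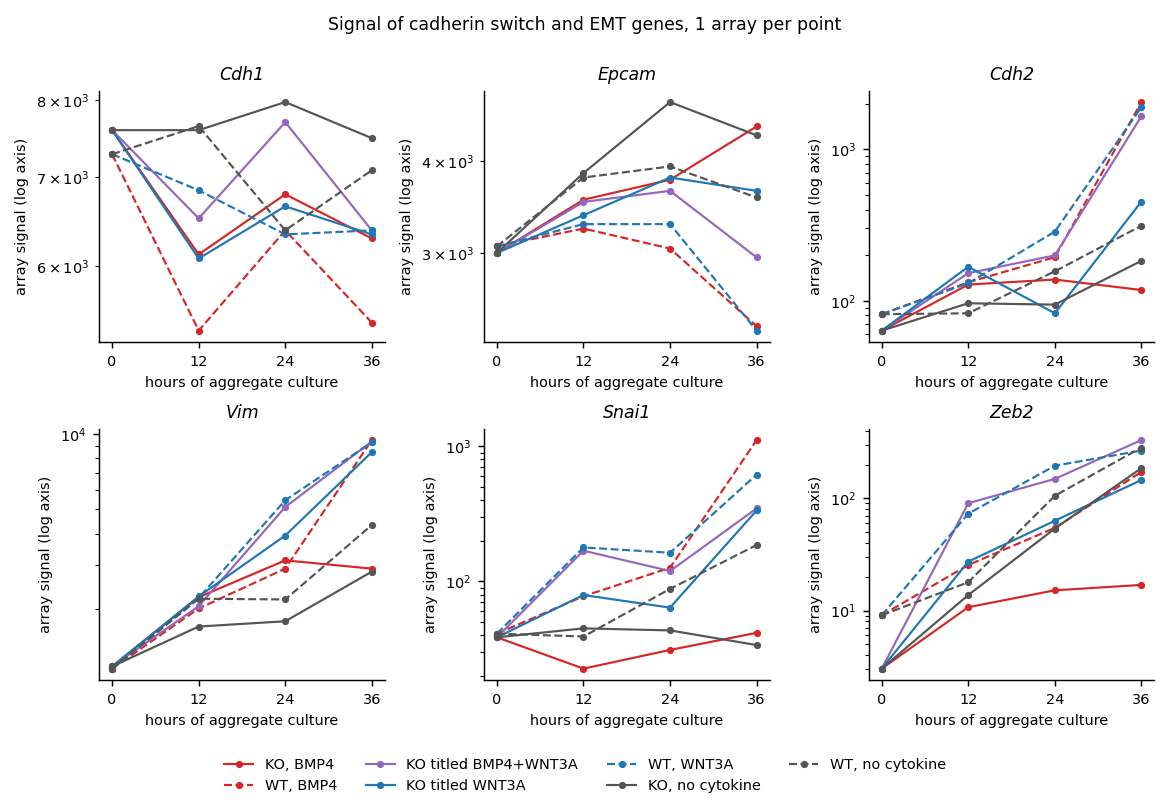
Signal (log axis) of Cdh1, Epcam, Cdh2, Vim, Snai1 and Zeb2 against hours of aggregate culture, 1 array per point, with lines joining the arrays of a condition to the 0 h array of its genotype, solid for KO and dashed for WT. Cdh2 and Snai1 reach 2048 and 1113 at 36 h in WT cells with BMP4 and stay at 118 and 41.6 in KO cells with BMP4, while Cdh1 stays between 5367 and 7968.

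Snai1, the SNAIL family repressor needed for mesoderm cells to leave the streak in the mouse, read 38.6 in KO cells and 41.1 in WT cells at 0 h, near the array median. In KO cells it read 169, 119 and 347 titled BMP4+WNT3A, 79.3, 64 and 335 titled WNT3A, and 22.6, 31.1 and 41.6 with BMP4, against 44.9, 43.4 and 33.8 untreated. In WT cells it read 77.7, 126 and 1113 with BMP4 and 179, 163 and 617 with WNT3A, against 39.1, 88.0 and 186 untreated. Every KO array without a WNT3A title or name lay between 22.6 and 44.9, and untreated WT cells passed that range from 24 h on. Both groups whose titles name WNT3A in KO cells were above it at all 3 times. Markers of nascent mesoderm varied over the same conditions. Of these 5, Eomes exceeded the array median on 23 arrays, Mesp1 on 22, Mixl1 on 9, Tbx6 on 7 and Lhx1 on 6. Low sums thus hold signals that cannot be told from background. The sum of the 5 at 36 h was 2100 in KO cells titled BMP4+WNT3A and 2096 in those titled WNT3A. It was 273 in KO cells with BMP4, against 223 in untreated KO cells. In WT cells that sum reached 7169 with BMP4 and 3303 with WNT3A, against 2157 untreated. The sum did not order the conditions as Cdh2 did, since untreated WT cells (2157, Cdh2 at 313) stood beside KO cells titled BMP4+WNT3A (2100, Cdh2 at 1652). Its lowest and highest values over the 3 times were 867 and 2100 in KO cells titled BMP4+WNT3A, 643 and 2096 titled WNT3A, 273 and 312 with BMP4 and 223 and 289 untreated, and in WT cells 912 and 7169 with BMP4, 783 and 3303 with WNT3A and 316 and 2157 untreated. The summed signal of the 5 epiblast markers at 36 h was 12309, 16261 and 23800 in KO cells titled BMP4+WNT3A, titled WNT3A and with BMP4, against 26551 in untreated KO cells, and 12488 and 10580 in WT cells with BMP4 and WNT3A, against 20534 in untreated WT cells. The arrays of highest Cdh2 thus had the lowest epiblast sums at 36 h. The part of either marker list in the signal of these genes was not tested, and in such bulk RNA fewer cells of a type and less RNA per cell cannot be told apart.

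Snai2, the second SNAIL gene, was dim: its 2 probe sets exceeded the array median on only 2 arrays each, and the gene was left out of the tests. Those 2 arrays were the 36 h arrays of WT cells with BMP4, at 156 and 112 on the 2 probe sets, and of KO cells titled WNT3A, at 59.7 and 59.3. The other 36 h arrays read, on the brighter probe set, 31.6 in KO cells titled BMP4+WNT3A, 15.1 in KO cells with BMP4 and 10.9 in untreated KO cells, and 37.0 in WT cells with WNT3A and 12.7 in untreated WT cells. At 12 and 24 h that probe set lay between 7.31 and 17.5. At 36 h Id1 read 9345 in KO cells titled WNT3A and 9878 in WT cells with BMP4. It read 10156 in KO cells with BMP4, where Snai2 read 15.1. A relation between Id1 and Snai2 was not tested. Cdh2 reached 1652 in the KO group titled BMP4+WNT3A and 452 in the one titled WNT3A.

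Zeb2, which encodes a zinc finger repressor of the ZEB family, was measured above the filter by 1 of its 5 probe sets. At 0 h it read 3.03 in KO cells and 9.06 in WT cells. In KO cells it read 90.5, 149 and 331 titled BMP4+WNT3A, 27.3, 63.1 and 146 titled WNT3A, and 10.7, 15.1 and 16.9 with BMP4, against 13.7, 53.8 and 186 untreated. In WT cells it read 25.5, 54.6 and 172 with BMP4 and 73.0, 195 and 267 with WNT3A, against 17.9, 105 and 284 untreated. Zeb2 was thus higher at 36 than at 12 h without any cytokine in both genotypes, by 2.76 on the log2 scale in KO cells and 3.04 in WT cells. Cdh2 was higher too, by 0.75 in KO cells and 1.58 in WT cells, whereas untreated KO cells had no more Snai1 at 36 h (33.8) than at 12 h (44.9). At 36 h the neural ectoderm markers Sox1, Pax6, Nes and Sox3 summed to 3202 in untreated KO and 3015 in untreated WT cells. In KO cells titled BMP4+WNT3A, titled WNT3A and with BMP4 they summed to 3068, 1738 and 2149. In WT cells with BMP4 and WNT3A they summed to 1278 and 3465. Sox1 (588) and Pax6 (236) peaked in untreated KO cells at 36 h, Nes and Sox3 elsewhere. The part of these markers in the Zeb2 or Cdh2 signal was not tested. The KO array with BMP4 was the only one with Zeb2 under 20 at 36 h. The other 4 Zeb2 probe sets never exceeded the array median and peaked at 22.0.

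Zeb1, the other ZEB gene, gave no single answer. Its brighter probe set read between 66.3 and 115 and its second between 23.6 and 111, and over 23 arrays they were unrelated (r = -0.03). At 36 h the brighter one read 108, 88.0 and 70.0 in KO cells titled BMP4+WNT3A, titled WNT3A and with BMP4, against 66.3 untreated, and the second read 66.3, 54.6 and 23.6, against 54.6 untreated. In WT cells at 36 h the brighter one read 78.8 with BMP4 and 95.0 with WNT3A, against 96.3 untreated, and the second read 52.0 and 111, against 69.1 untreated. The remaining 2 Zeb1 probe sets never exceeded the array median. Twist1, a basic helix-loop-helix factor of the mesoderm, stayed between 10.5 and 74.0. It exceeded the array median on 9 arrays, and at 36 h read 67.6, 66.3 and 15.2 in KO cells titled BMP4+WNT3A, titled WNT3A and with BMP4, against 10.5 untreated, while WT cells read 63.6 with BMP4 and 74.0 with WNT3A, against 57.7 untreated. The 2 lowest Twist1 values at 36 h were thus the KO arrays without WNT3A in title or name.

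**Figure D2:**
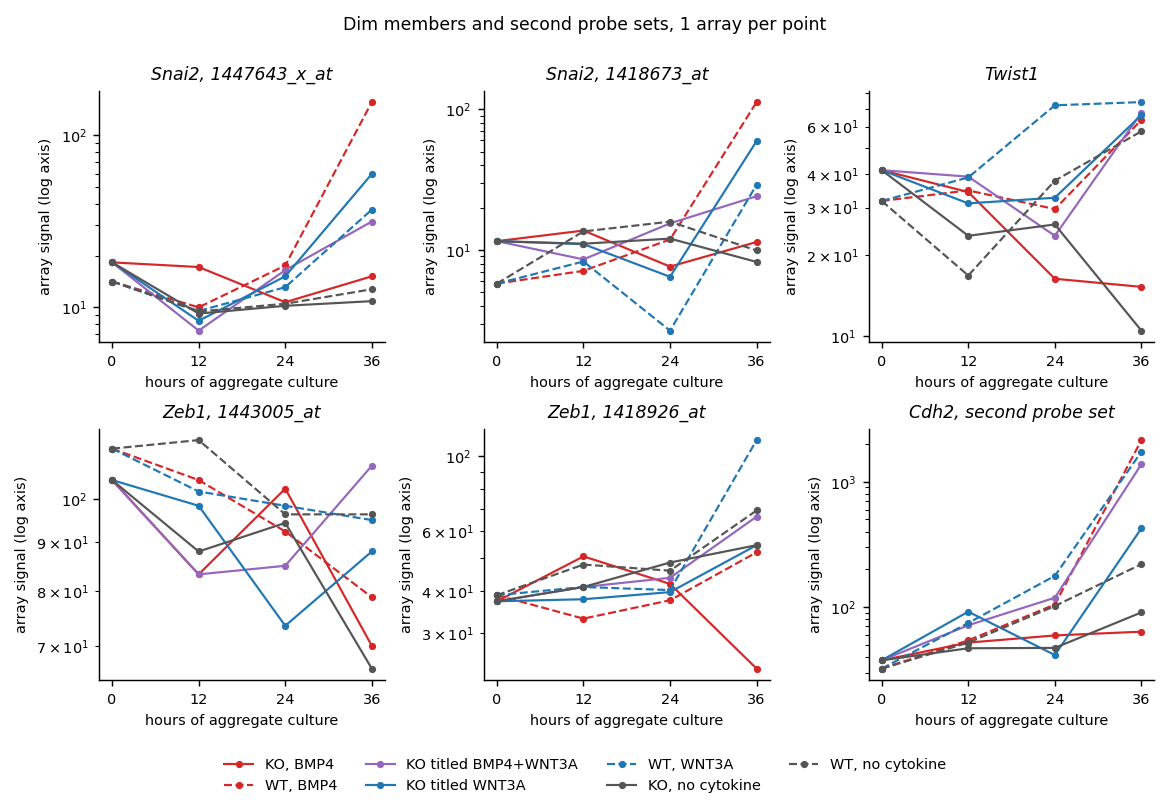
Signal (log axis) against hours of culture for both Snai2 probe sets, Twist1, the 2 measurable Zeb1 probe sets and the second Cdh2 probe set, 1 array per point, coloured by treatment, solid for KO and dashed for WT. Snai2 leaves its low range at 36 h in WT cells with BMP4 (156 and 112), the 2 Zeb1 panels do not follow each other, and the second Cdh2 probe set reaches 2150 in WT cells with BMP4 and 63.6 in KO cells with BMP4 at 36 h.

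For the tests, 8 of the 9 genes passed the filter on dim signal, which kept 13256 genes in all. Differences are means over 12, 24 and 36 h on the log2(signal + 16) scale, which understates changes of dim genes, with the standard error of a limma model in which the 3 times stand in for replicates (n = 3 times per condition). The p-values set a difference against how unevenly the conditions moved over the times, within 1 set of cultures. The change over time that all conditions share is taken out first. In the comparison of 36 with 12 h the 7 conditions stand in for replicates instead. All p-values were adjusted by Benjamini-Hochberg over all genes tested with a threshold of 0.05. A response that appears at 36 h alone counts as spread in this model. The comparisons of BMP4 and of WNT3A in WT cells share the untreated WT arrays, and the 3 comparisons of treated KO cells share the untreated KO arrays.

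The comparison of KO with WT cells under BMP4 asks how the BMP4 culture differs without Wnt3. Snai1 was lower in KO cells, with a log2 difference of -2.40 ± 0.48 (adjusted p = 0.0065), and lower at all 3 times (22.6 to 41.6 in KO cells, 77.7 to 1113 in WT cells). Zeb2 differed by -1.43 ± 0.35 (adjusted p = 0.0197), with 10.7 to 16.9 in KO cells and 25.5 to 172 in WT cells. Both genes lay near or under the array medians in KO cells, so the size of their difference is set in part by the offset: with an offset of 1 it was -2.84 for Snai1 and -2.07 for Zeb2, and with 64 it was -1.72 for Snai1 and -0.78 for Zeb2, which then did not pass (adjusted p = 0.0523). Epcam was higher in KO cells, by 0.45 ± 0.13 (adjusted p = 0.0445), with 3541 to 4451 in KO cells and 2385 to 3236 in WT cells. The Epcam call was lost under 9 of 13 alternatives, whose adjusted p ran between 0.0414 and 0.288, among them the fit without the filter on dim genes (0.0633), and with every probe set tested by itself neither Epcam probe set passed (0.0506 and 0.124). Of the alternatives that gave a value for the gene, the Snai1 call was lost under 1 of 12 and the Zeb2 call under 4 of 11. The mean of probe sets gave no value for Zeb2, so it was not called in that setting either. These 3 of the 8 tested members passed, against 7.23% of all genes. Cdh2 differed by -1.52 ± 0.60 and did not pass (adjusted p = 0.145), since the log2 difference was -0.09 at 12 h, -0.51 at 24 h and -3.94 at 36 h. Vim had the same form, with log2 differences of 0.13, 0.08 and -1.81 and an adjusted p of 0.387. Without the 24 h arrays none of the 3 calls remained, and without the 36 h arrays Snai1 alone was called, with Epcam at 0.20 (adjusted p = 0.226) and Zeb2 at -0.91 (adjusted p = 0.0963). Leaving out a time also takes 7 of the 21 arrays from the fit. The 6 arrays of conflicting labels enter here only through the spread, and a fit without them called Snai1 alone.

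In untreated cells no member passed between KO and WT, where 0.0981% of all genes were called. No member had an unadjusted p under 0.05 either in this limma fit. The largest difference was that of Snai1, at -0.87 ± 0.48 (adjusted p = 0.485), with 44.9, 43.4 and 33.8 in KO cells and 39.1, 88.0 and 186 in WT cells. The KO course lay below the WT course from 24 h on, and its slope per 12 h differed by -1.05 ± 0.50 (adjusted p = 0.636). For the slopes of untreated cells, 0.143% of all genes and no member passed, and limma gave 1 member, Twist1, an unadjusted p under 0.05 (difference -0.86 ± 0.30, adjusted p = 0.492).

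The KO minus WT difference of the BMP4 response, which tests whether the 2 lines answered BMP4 differently, passed for no member and no gene (0 of 13256, 0%; limma gave 781 genes an unadjusted p under 0.05, and the smallest adjusted p was 0.0516). Among the members only Snai1 had an unadjusted p under 0.05, with a difference of -1.53 ± 0.68 (adjusted p = 0.834). Cdh2 differed by -1.14 ± 0.85 and Zeb2 by -0.93 ± 0.49. A difference of the BMP4 response between the genotypes was therefore not detected for any of these genes by this test.

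With BMP4 in WT cells Cdh1 fell by 0.29 ± 0.07 on the log2 scale (adjusted p = 0.0316), the only member of 8 that passed, against 3.42% of all genes. The WT BMP4 arrays read 5367, 6383 and 5442 and the untreated WT arrays 7643, 6383 and 7082, so the groups met at 24 h. Snai1 differed by 1.23 ± 0.48 (adjusted p = 0.194) and Cdh2 by 1.19 ± 0.60 (adjusted p = 0.332), both higher at all 3 times, and Epcam by -0.38 ± 0.13 (adjusted p = 0.134), lower at all 3 times. Zeb2 differed by -0.39 ± 0.35 (adjusted p = 0.622) and was higher than untreated at 1 time and lower at 2. The Cdh1 call did not hold without quantile normalization (adjusted p = 0.0516), with the 12 h arrays left out (0.355), with the 36 h arrays left out (0.288), or without the 3 arrays on which the ratio of the 3′ to the 5′ Gapdh probe sets was highest (0.198), which were WT cells with WNT3A at 24 h, untreated KO cells at 24 h and untreated WT cells at 36 h. In KO cells BMP4 changed no member past the threshold, where 0.558% of all genes were called, and limma gave 2 members, Cdh1 and Zeb2, an unadjusted p under 0.05. Cdh1 differed there by -0.24 ± 0.07 (adjusted p = 0.175) and Zeb2 by -1.32 ± 0.35 (adjusted p = 0.118), both lower at all 3 times, while Cdh2 differed by 0.05 ± 0.60 and Snai1 by -0.30 ± 0.48. Zeb2 passed in KO cells when the 12 h arrays were left out (-1.89, adjusted p = 0.0462).

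With WNT3A in WT cells the means of Cdh2, Vim, Snai1 and Zeb2 were higher and those of Cdh1 and Epcam lower than without it, and none passed. No member of 8 passed, against 0.483% of all genes, and limma gave 4 members an unadjusted p under 0.05. These were Snai1 (1.39 ± 0.48, adjusted p = 0.219), Cdh2 (1.29 ± 0.60, adjusted p = 0.352), Vim (0.79 ± 0.33, adjusted p = 0.301) and Epcam (-0.36 ± 0.13, adjusted p = 0.243). Snai1 was already 179 at 12 h with WNT3A, against 39.1 in untreated WT cells. Without the 36 h arrays it passed (1.29, adjusted p = 0.0314), as the only member.

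In KO cells titled BMP4+WNT3A, 3 of 8 members rose over untreated KO cells, against 6.77% of all genes called. Snai1 rose by 1.79 ± 0.48 (adjusted p = 0.0350), with 119 to 347 in these cells and 33.8 to 44.9 in untreated KO cells. Zeb2 rose by 1.22 ± 0.35 (adjusted p = 0.0456), and Vim by 1.14 ± 0.33 (adjusted p = 0.0489), both higher at all 3 times but with overlapping ranges. Cdh2 differed by 1.47 ± 0.60 (adjusted p = 0.169), Epcam by -0.39 ± 0.13 (adjusted p = 0.0872) and Cdh1 by -0.19 ± 0.07 (adjusted p = 0.119). Of the 3 calls none remained without the 24 h arrays, with an offset of 64 or without the 3 arrays of high Gapdh ratio, and Vim alone remained without the 12 h arrays (adjusted p for Snai1 0.109 and for Zeb2 0.168). In KO cells titled WNT3A, Cdh1 fell by 0.29 ± 0.07 relative to untreated KO cells (adjusted p = 0.0166), with 6081 to 6654 in these cells and 7486 to 7968 in untreated KO cells, and no other member of 8 passed, against 9.51% of all genes. Vim differed by 1.04 ± 0.33 (adjusted p = 0.0590) and Snai1 by 1.26 ± 0.48 (adjusted p = 0.119), both higher at all 3 times, and Zeb2 by 0.13 ± 0.35 (adjusted p = 0.874). The Cdh1 call did not hold without the 12 h arrays (adjusted p = 0.175) or the 36 h arrays (0.0766). If the array names are right and the titles wrong, the values of the 2 groups change places: the lower Cdh1 then belongs to KO cells with both cytokines, and the higher Snai1, Zeb2 and Vim to KO cells with WNT3A alone.

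**Figure D3:**
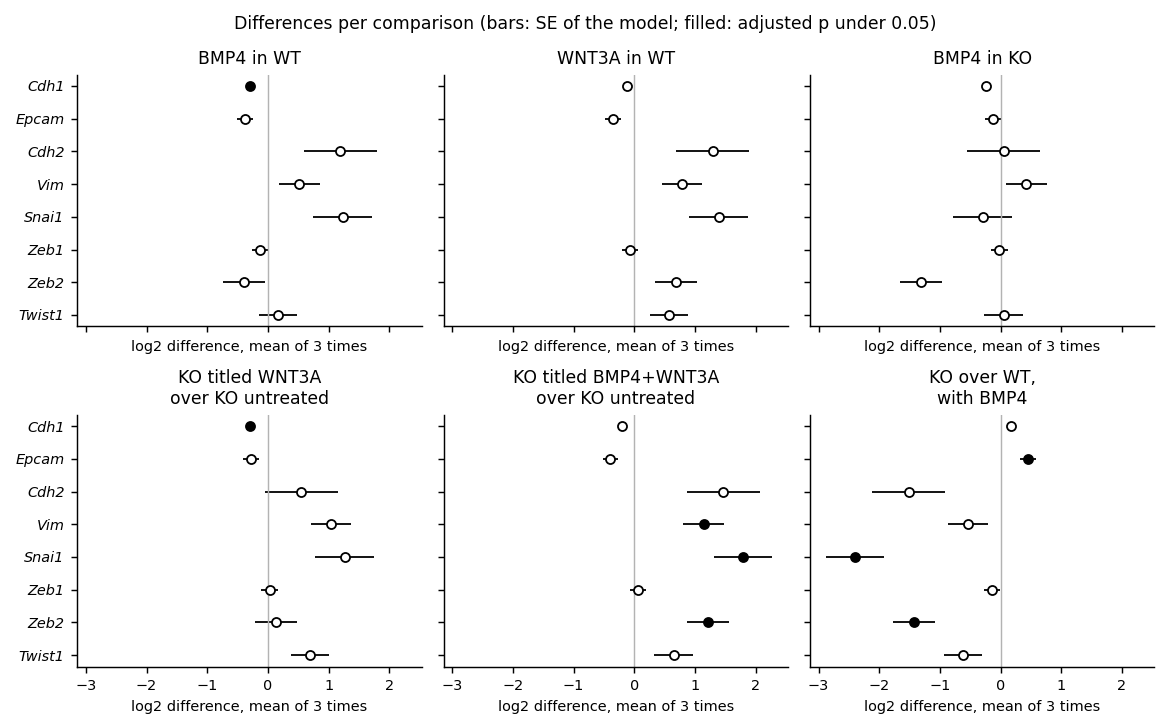
Log2 differences of the 8 tested genes in 6 comparisons, as the mean of 3 times with the standard error of the model as bars and filled points where the adjusted p was under 0.05. Snai1 and Zeb2 lie at -2.40 and -1.43 for KO over WT cells with BMP4, and at 1.79 and 1.22 for KO cells titled BMP4+WNT3A over untreated KO cells, while the Cdh1 points all lie within 0.30 of 0.

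Time in culture gave more calls among these genes than any comparison of conditions, as it did over all genes (38.7% called, against at most 9.51%). It sets the arrays of 7 conditions at 36 h against those at 12 h, where a comparison of conditions sets 3 arrays against 3. Between 12 and 36 h, over all 7 conditions, Cdh2 rose by 1.95 ± 0.39 (adjusted p = 0.000997), Zeb2 by 1.87 ± 0.23 (adjusted p = 1.45e-05), Vim by 1.43 ± 0.22 (adjusted p = 9.87e-05) and Snai1 by 1.36 ± 0.32 (adjusted p = 0.00295). The size of the Zeb2 rise depended on the offset: it was 2.33 with an offset of 1 and 1.23 with 64, and passed with both. Zeb1 fell by 0.23 ± 0.09 (adjusted p = 0.0492) on its brighter probe set, but its second probe set gave 0.30 (adjusted p = 0.115), so no direction can be given for the gene. These 5 of 8 members passed, against 38.7% of all genes. Epcam (-0.19 ± 0.09, adjusted p = 0.0914), Cdh1 (-0.07 ± 0.05, adjusted p = 0.236) and Twist1 (0.34 ± 0.21, adjusted p = 0.212) did not pass. When the filter on dim genes was dropped, Snai2 rose by 0.93 ± 0.25 in this comparison (adjusted p = 0.0110) and passed in no comparison of conditions.

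A linear course was then fitted within each condition, with slopes in log2 per 12 h, to show in which conditions this rise took place. These fits were added after the values were seen. In WT cells with BMP4, 5 of 8 members passed, against 11.2% of all genes: Cdh2 rose by 1.78 ± 0.43 per 12 h (adjusted p = 0.0233), Snai1 by 1.71 ± 0.35 (adjusted p = 0.0119), Vim by 1.09 ± 0.18 (adjusted p = 0.00373) and Zeb2 by 1.05 ± 0.14 (adjusted p = 0.0015), and Epcam fell by 0.31 ± 0.09 (adjusted p = 0.0490). In KO cells with BMP4 no member passed, against 0.785% of all genes, and limma gave none an unadjusted p under 0.05. The slopes there were -0.14 ± 0.43 for Cdh2, 0.28 ± 0.35 for Snai1, 0.12 ± 0.18 for Vim and 0.15 ± 0.14 for Zeb2. The difference of the BMP4 slopes between the genotypes itself passed for no member, against 0.0302% of all genes, although limma gave 5 members an unadjusted p under 0.05. These were Zeb2 (-0.90 ± 0.20, adjusted p = 0.115), Vim (-0.97 ± 0.25, adjusted p = 0.145), Epcam (0.42 ± 0.13, adjusted p = 0.204), Cdh2 (-1.92 ± 0.61, adjusted p = 0.218) and Snai1 (-1.43 ± 0.50, adjusted p = 0.268).

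In WT cells with WNT3A, 3 of 8 members rose, against 7.5% of all genes: Cdh2 by 1.80 ± 0.43 per 12 h (adjusted p = 0.0263), Vim by 1.01 ± 0.18 (adjusted p = 0.00553) and Zeb2 by 0.75 ± 0.14 (adjusted p = 0.00849). In KO cells titled BMP4+WNT3A the same 3 rose, against 7.03% of all genes, Cdh2 by 1.59 ± 0.43 (adjusted p = 0.0468), Vim by 1.09 ± 0.18 (adjusted p = 0.00385) and Zeb2 by 0.76 ± 0.14 (adjusted p = 0.00858). In KO cells titled WNT3A, Vim rose by 0.95 ± 0.18 (adjusted p = 0.0232) and Zeb2 by 0.92 ± 0.14 (adjusted p = 0.0116), against 1.13% of all genes, and the Cdh2 slope was 0.63 ± 0.43 (adjusted p = 0.530). With exchanged labels the values of these last 2 conditions change places. In untreated cells Zeb2 was the only member whose slope passed, at 1.38 ± 0.14 in KO cells (adjusted p = 0.000958, against 1.33% of all genes) and 1.52 ± 0.14 in WT cells (adjusted p = 0.000177, against 2.6%). With an offset of 1 these slopes were 1.83 in KO and 1.90 in WT cells. With 64 they were 0.84 and 1.00, and they passed with both offsets. Zeb2 thus had a rising slope in 6 of 7 conditions, Vim in 4, Cdh2 in 3 and Snai1 in 1. Of the slopes called in the 7 conditions, 3 were lost under an alternative that gave a value for the gene. The mean of probe sets gave no value for Zeb2, so none of its slopes was called in that setting. The Cdh2 slope in WT cells with WNT3A was lost under 1 of 10, without the 3 arrays of high Gapdh ratio (adjusted p = 0.0543). The Cdh2 slope in KO cells titled BMP4+WNT3A and the Epcam slope in WT cells with BMP4 were each lost under 6 of 10, with adjusted p up to 0.530 and 0.121.

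**Figure D4:**
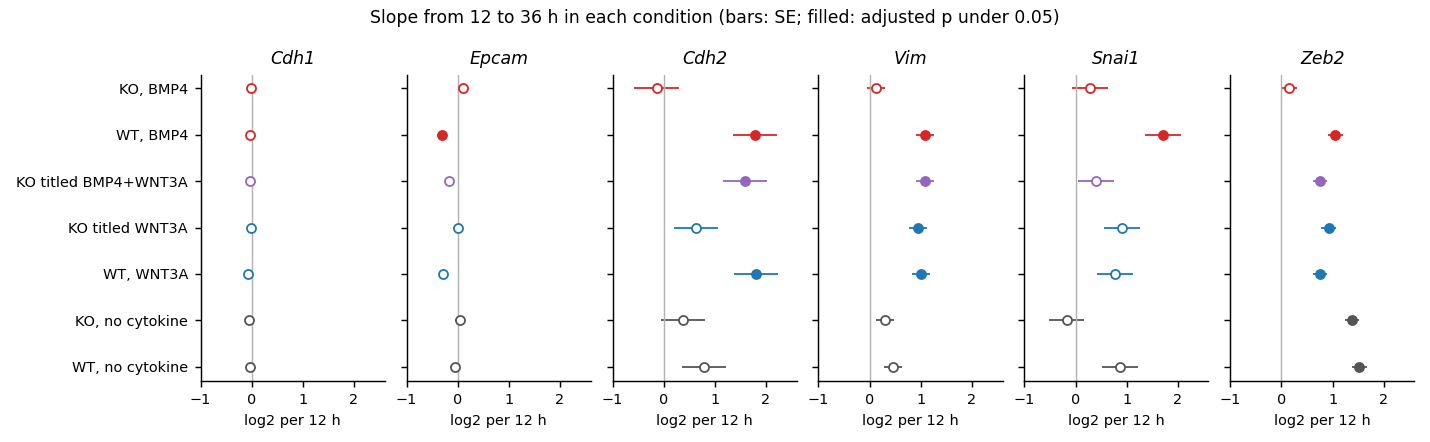
Slope between 12 and 36 h, in log2 units per 12 h with standard errors, of 6 genes in each of the 7 conditions, with filled points where the adjusted p was under 0.05. Zeb2 slopes pass in 6 of 7 conditions and lie at 0.15 in KO cells with BMP4, Snai1 passes at 1.71 in WT cells with BMP4 alone, and the Cdh1 slopes lie near 0 throughout.

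Other genes of the epithelial to mesenchymal transition were read from 7 lists with 107 genes, of which 92 were tested. Their counts are to be read against those over all 13256 genes: between 12 and 36 h 38.7% were called (2362 rose, 2763 fell), in KO cells titled WNT3A 9.51% (529 rose, 731 fell), in KO cells titled BMP4+WNT3A 6.77% (395 rose, 503 fell), and for KO against WT cells under BMP4 7.23% (567 higher, 391 lower). In these lists too, the values of KO cells titled WNT3A and titled BMP4+WNT3A change places if the array names are right. Among 23 tested epithelial junction and polarity genes, 7 rose and 7 fell between 12 and 36 h, with a median of -0.02, equal to the median of all genes (-0.02). Dsp, the desmosomal plaque gene, rose by 2.33 ± 0.19, whereas the polarity gene Crb3 fell by 0.80 ± 0.14, the tight junction gene Tjp3 by 0.73 ± 0.17 and the small GTPase gene Rab25 by 0.66 ± 0.17. In KO cells titled BMP4+WNT3A over untreated KO cells 8 of the 23 fell and 1 rose (median -0.20, against -0.02 over all genes). Rab25 fell by 1.37 ± 0.26, Crb3 by 1.26 ± 0.22 and the tight junction gene Marveld2 by 0.77 ± 0.11, while Dsp rose by 1.52 ± 0.28. In KO cells titled WNT3A 4 fell and 3 rose, against 9.51% of all genes called (median -0.05, against -0.01 over all genes), with Rab25 at -1.17 ± 0.26, Crb3 at -0.73 ± 0.22, Dsp at 1.504 ± 0.285 and the desmosomal cadherin gene Dsg2 at 0.60 ± 0.15. Dsp (1.44 ± 0.28) and Dsg2 (0.81 ± 0.15) were the 2 genes of the list that rose with BMP4 in WT cells, and they were the 2 that were lower in KO than in WT cells under BMP4, at -1.24 ± 0.28 and -0.85 ± 0.15.

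Among 9 epithelial transcription and splicing factors, Grhl2 (0.78 ± 0.22) and Esrp1 (0.45 ± 0.13) were higher in KO than in WT cells under BMP4 and Elf3 was lower (-0.78 ± 0.20), with 6 not passing and a median of 0.18, against -0.01 over all genes. GRHL2 and OVOL2 are known to sustain the epithelial state, and ESRP1 and ESRP2 direct epithelial splice forms. BMP4 in WT cells lowered Esrp1 (-0.53 ± 0.13) and raised Elf3 (0.76 ± 0.20), as KO cells titled WNT3A did against untreated KO cells (-0.57 ± 0.13 and 0.66 ± 0.20), and in KO cells titled BMP4+WNT3A Ovol2 fell by 0.72 ± 0.18. Between 12 and 36 h 4 of the 9 fell, against 2763 of 13256 genes (median -0.25, against -0.02 over all genes), with Esrp2 at -0.95 ± 0.11, Grhl1 at -0.72 ± 0.09 and Grhl2 at -0.56 ± 0.14, and Grhl3 rose by 1.29 ± 0.28. Of 5 catenins, the cytoplasmic partners of cadherins, Ctnna1 rose with BMP4 in WT cells (0.26 ± 0.06), and Ctnna1 (0.44 ± 0.04), Ctnnd2 (0.26 ± 0.09) and Ctnnb1 (0.17 ± 0.03) rose between 12 and 36 h.

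Of 10 other cadherins and protocadherins 5 rose and 2 fell between 12 and 36 h (median 0.44, against -0.02 over all genes), with Pcdh7 at 1.82 ± 0.36, Cdh11 at 1.73 ± 0.22, Pcdh18 at 1.49 ± 0.19 and Cdh6 at 0.77 ± 0.13. Pcdh7 was also lower in KO than in WT cells under BMP4 (-2.66 ± 0.54), the only gene of this list that passed in a comparison of conditions. Of 16 other transcription factors linked to the transition 9 were tested. Tbx3 rose with BMP4 in WT cells (1.64 ± 0.25) and in KO cells titled WNT3A (1.15 ± 0.25) and was lower in KO than in WT cells under BMP4 (-1.71 ± 0.25). Hmga2 rose with BMP4 in WT cells (0.87 ± 0.22) and, with Gsc, Tcf4 and Tcf12, between 12 and 36 h, whereas Tcf12 was lower in KO cells titled WNT3A (-0.55 ± 0.11). Of 22 tested mesenchymal matrix and cytoskeleton genes 15 rose and none fell between 12 and 36 h, against 38.7% of all genes called (median 0.47, against -0.02 over all genes), led by the smooth muscle gene Tagln (2.38 ± 0.22), the receptor gene Pdgfrb (2.04 ± 0.38) and S100a6 (1.98 ± 0.21). Pdgfrb was 2.61 ± 0.58 higher in KO cells titled BMP4+WNT3A than in untreated KO cells and was lower in KO than in WT cells under BMP4 (-2.50 ± 0.58). It is also 1 of the 7 fibroblast markers, whose summed signal at 36 h was 817, 397 and 586 in KO cells titled BMP4+WNT3A, titled WNT3A and with BMP4, against 595 in untreated KO cells, and 1005 and 974 in WT cells with BMP4 and WNT3A, against 609 in untreated WT cells. The metalloprotease gene Mmp14 rose in 4 comparisons with untreated cells, by 0.80 ± 0.10 and 0.83 ± 0.10 in KO cells titled BMP4+WNT3A and titled WNT3A, by 0.50 ± 0.10 with BMP4 in KO cells and by 0.40 ± 0.10 with BMP4 in WT cells, and was the only gene of the 7 lists called with BMP4 in both genotypes.

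Of 15 tested regulators of the transition at gastrulation 7 were lower and 1 higher in KO than in WT cells under BMP4 (median -0.95, against -0.01 over all genes). The 7 include Wnt3 itself (-1.45 ± 0.41), the gene by which the lines differ. Without it 6 of 14 were lower and 1 higher (median -0.70). The activin antagonist gene Fst differed by -3.76 ± 0.63, the homeobox gene Mixl1 by -3.54 ± 0.85 and Fgf8, an FGF needed for cells to leave the streak in the mouse, by -3.28 ± 0.49, while Fgf4 differed by 3.47 ± 0.69. The KO cells titled BMP4+WNT3A had higher Fst (4.35 ± 0.63), Fgf8 (2.93 ± 0.49) and Lef1 (1.09 ± 0.31) than untreated KO cells, and those titled WNT3A had higher Fst (2.89 ± 0.63), Fgf8 (2.70 ± 0.49), Nodal (0.63 ± 0.11) and Epb41l5 (0.46 ± 0.11). Between 12 and 36 h 8 rose and 1 fell, against 38.7% of all genes called (median 0.53, against -0.02 over all genes), with Mixl1 at 2.69 ± 0.56, Fst at 1.73 ± 0.41 and Tbx6 at 1.59 ± 0.54. Fst was also the only list gene whose untreated slope differed between the genotypes (-2.25 ± 0.32 per 12 h in KO minus WT, adjusted p = 0.0190).

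Over all 23 arrays the members fell together as follows, given as Pearson's r of normalized log2 signal without a test, since the arrays share cultures, times and lines. Cdh2 followed Vim (r = 0.88), Snai1 (0.87) and Zeb2 (0.73), Snai1 followed Vim (0.79) and Twist1 (0.78), and Epcam ran opposite to Snai1 (-0.78) and Cdh2 (-0.77). Cdh1 was less closely related to them, at -0.58 with Cdh2 and -0.59 with Snai1, over a range of 0.56 on the log2 scale. The genes most like Cdh2 were Mex3b, Zadh2, Plxna2 and Grsf1 (r of 0.95 each), and Kdm4c and Cbx7 were most opposite (-0.95 each). Those most like Snai1 were Dkk1 (0.92), Wnt5b (0.92), Rspo3 (0.92) and Napa (0.91), with Zfp281 and Pdzd4 most opposite (-0.92 each). Those most like Vim were Krt19 (0.97), Anxa3 (0.97), Anxa2 (0.96) and Gbp2 (0.96), with Jph4 and Thy1 most opposite (-0.96 each). Those most like Zeb2 were Greb1l (0.94), Phf20l1 (0.92), Actc1 (0.92) and Tgfb1i1 (0.92), with Pla2g10 (-0.96) and Depdc7 (-0.92) most opposite. Cdh1 was most like Dip2c (0.89), Trim33 (0.88), Slc39a14 (0.87) and Cramp1l (0.85) and most opposite to P3h4 (-0.86) and Efna4 (-0.83). The brighter Zeb1 probe set was most like Abcg4 (0.86), Dhh (0.82), Rgs16 (0.80) and Tbc1d10a (0.80) and most opposite to Hivep1 and Ints7 (-0.80 each), and these were not computed for the second.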

How the data were processed

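The authors deposited 1 intensity value per probe set and array on a linear scale with a floor at 1, where 2.93% of values stand; per the labels' protocols the RNA was amplified as cDNA and biotinylated, and the summarization method was not given in the sources used here. Gene names came from GEO's platform annotation: of 45101, 34958 name 1 gene, 932 several and 9211 none, and 34754 were matched to a RefSeq table (GRCm38.p6), which also gave the promoters. Signals were taken as log2(value + 16) and quantile normalized over 23 arrays. Each gene was represented by its probe set of highest mean and kept if that exceeded the array median on at least 3 arrays.

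limma 3.58.1 (R 4.3.3) fitted 21 arrays, 7 conditions and time as a block with 12 residual degrees of freedom, with a trend in the prior variance. Slopes came from linear courses with 7 residual degrees of freedom. The 0 h arrays entered no test. On simulated data, 100 genes each were moved by 1 or 2 log2 units at all 3 times in WT cells with BMP4. Of these 82% and 98% were called, with 8 false calls among 188. The moved genes were drawn at random from all 13256, each with its own spread. These rates are thus not those of the members, whose standard errors in that comparison ran from 0.07 (Cdh1) to 0.60 (Cdh2). Responses at 36 h alone were not simulated, so the outcome does not cover them. Alternatives were values as deposited, offsets of 1 and 64, no filter, mean or single probe sets, no trend, array weights, exchanged labels, and leaving out a time, the 6 KO arrays of conflicting labels or the 3 of highest Gapdh ratio.

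The genes and lists were chosen with earlier results of these data known. All members are named with every probe set. At most 4 called genes per list and comparison are named, by size, with the 4 most and 2 least correlated genes of 6 members. Figures used matplotlib 3.10.9.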

Additional observations from a re-analysis of the deposited data

How the results depend on the processing

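Over 1475 repeats for single genes under the alternatives 1397 kept their direction where called and their side of the threshold, 66 calls were lost, 11 were gained and 1 reversed: Zeb1 at 36 against 12 h, at 0.30 on its second probe set (reported -0.23). Many of these repeats are of genes not called in the reported fit, so the number kept does not measure how the calls held. Among alternatives that gave a value, Cdh1 was lost under 8 of 12 with BMP4 in WT cells and 4 of 12 in KO titled WNT3A. In KO titled BMP4+WNT3A Vim was lost under 9 of 14, Snai1 under 6 of 12 and Zeb2 under 7 of 11. For KO against WT with BMP4 Epcam was lost under 9 of 13, Zeb2 under 4 of 11 and Snai1 under 1 of 12. The counts of members called moved, among others, as follows. With BMP4 in WT cells the reported 1 became 0 for values as deposited, without the filter, without the trend, with array weights, without the 6 KO arrays and without the 3 Gapdh arrays, and 0 to 1 when a time was left out. WNT3A in WT and BMP4 in KO cells gave 0 to 1 when a time was left out (reported 0). For KO titled WNT3A the reported 1 became 0 without the trend, 2 with array weights or every probe set by itself, and 3 with exchanged labels, and was 0 to 1 without a time. For KO titled BMP4+WNT3A the reported 3 became 0 with an offset of 64, without the filter or without the Gapdh arrays, 1 with the mean of probe sets, without the trend or with exchanged labels, and 0 to 2 without a time. For KO against WT with BMP4 the reported 3 became 1 with the mean of probe sets or without the 6 KO arrays, 2 with an offset of 64, without the filter, without the trend, without the Gapdh arrays or with every probe set by itself, 0 as a slope difference, and 0 to 2 without a time. At 36 against 12 h the reported 5 became 3 with the mean of probe sets, which averages dim Zeb2 and Zeb1 probe sets in. The same setting gave 0 for the untreated slopes in WT (reported 1) and in KO cells (reported 1). It gave 1 for the slopes of KO titled BMP4+WNT3A (reported 3) and 1 for KO titled WNT3A (reported 2). Counts also moved where single calls were lost. Zeb1 at 36 against 12 h was lost or reversed under 6 of 10, among them values as deposited (adjusted p = 0.242) and array weights (0.182). Without the Gapdh arrays (0.102) or the 24 h arrays (0.0828) it was lost too. The Epcam slope in WT cells with BMP4 and the Cdh2 slope in KO titled BMP4+WNT3A were each lost under 6 of 10. The Cdh2 slope in WT cells with WNT3A was lost under 1 of 10.

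Counts over all genes ranged under the alternatives from 12 to 664 for BMP4 in WT (reported 453), 0 to 268 for WNT3A in WT (64), 0 to 169 for BMP4 in KO (74), 102 to 2425 for KO titled WNT3A (1260), 0 to 2003 for KO titled BMP4+WNT3A (898), 0 to 29 for the KO minus WT difference of the BMP4 response (0), 0 to 38 for untreated KO against WT (13), 4 to 1437 for KO against WT with BMP4 (958), 3283 to 7730 for 36 against 12 h (5125), 3 to 27 for the untreated slope difference (19), 9 to 455, 88 to 261 and 38 to 163 for the slopes of untreated WT (344), untreated KO (176) and KO with BMP4 (104), 150 to 1163 for KO titled BMP4+WNT3A (932) and 100 to 932 for KO titled WNT3A (150). The cause of these shifts was not tested.

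Slopes cannot be refitted without a time, and 36 against 12 h not without either. The labels give no replicate numbers, and the reported fit already pairs the arrays of a time across conditions through its block on time. With 1 array per genotype, condition and time the number of arrays limits the precision. Without detection calls, signals near or under the array median cannot be told from background. These were Snai2, Twist1 and most Zeb1 and Zeb2 probe sets. They were also Snai1 at 0 h, in KO cells untreated or with BMP4 and in untreated WT cells at 12 h, and the measured Zeb2 probe set in KO cells with BMP4. That Zeb2 probe set exceeded the array median on 14 of 23 arrays. It lay under it at 0 h too (3.03 in KO and 9.06 in WT cells). At 12 h it did so in untreated KO (13.7) and untreated WT cells (17.9). The same held at 12 h for WT cells with BMP4 (25.5) and KO cells titled WNT3A (27.3).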
